A study of Mus musculus with 18 samples.

Results

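The genes described here are the translation initiation and elongation factors of the mouse, together with the proteins that bind, phosphorylate or methylate them. They were taken by name, as every gene whose symbol starts with Eif1 to Eif6, Eef1 or Eef2. No measured value enters this rule, but the set was chosen with earlier results of these data known. Of the 55153 RNA-seq genes, 79 matched, and 11 were left out because they were processed pseudogenes (10) or the Y-linked copy Eif2s3y. This left 68 genes, of which 67 fall into 9 groups by known role and 1, Eif2c5, matched by name only. Footprint counts in all libraries were present for 63 of the 68 genes, out of 14348 such genes in the Ribo-seq table. For 5 genes (Eef1akmt3, Eif2c5, Eif3j2, Eif4e1b and Eif4ebp3) the count entries were blank in 8 of the 9 Ribo-seq libraries. Blank entries were treated as missing and not as an absence of footprints.

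The libraries came from the cerebral cortex of C57BL/6 mouse embryos at embryonic day 15.5. Ctrl embryos were wild type by the labels, F-cKO embryos carried Fto f/f with Emx1-cre, and M-cKO embryos carried Mettl3 f/f with Emx1-cre. Fto removes N6-methyladenosine from RNA and Mettl3 is the catalytic subunit of the enzyme that deposits it. Emx1-cre acts in the dorsal forebrain lineage, so that vessels, blood, meninges, microglia and neurons born in the ventral forebrain keep the floxed gene. The floxed lines had a mixed C57/BL6 and 129 background according to the methods, and whether the Ctrl embryos carried Emx1-cre is not given in the labels. Each genotype had 3 RNA-seq and 3 Ribo-seq libraries, 18 in all. The labels call them biological repeats without tying a library to an embryo. The methods can be read as taking 3 Ribo-seq cortices from 1 litter and do not say of which genotype, so the P values measure the spread between these libraries.

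Translation starts when eIF2, carrying initiator tRNA and GTP, joins the small ribosomal subunit together with eIF1, eIF1A, eIF3 and eIF5. The complex is brought to capped mRNA by eIF4F, in which eIF4E holds the cap, eIF4A is an RNA helicase and eIF4G is the scaffold. The 4E-BPs compete with eIF4G for eIF4E until mTORC1 phosphorylates them, and the eIF2 kinases slow initiation by turning eIF2 into an inhibitor of its exchange factor eIF2B. In elongation, eEF1A delivers aminoacyl-tRNA, eEF1B recharges eEF1A with GTP, eEF2 moves the ribosome along the mRNA and eIF5A relieves stalled ribosomes. In developing cortex these factors serve the large protein output of dividing progenitors and newly born neurons. Many of their mRNAs belong to the 5′ terminal oligopyrimidine (5′TOP) class, which begins with a C and a run of pyrimidines and is under the control of mTORC1 and Larp1.

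The start of the transcript was therefore read for the genes on which the results turn. Each window below covers 10 bases before to 20 bases after the start annotated by RefSeq (GRCm38.p6), on the transcript strand, and the capitals mark a tract of a C followed by at least 4 further C or T that begins within 3 bases of that start. Eef1a1 lies on the minus strand at chr9:78481705-78481734, Eif3f on the plus strand at chr7:108934405-108934434, Eif2s3x on the minus strand at chrX:94212632-94212661 and Eif4g1 on the plus strand at chr16:20672717-20672746, and all 4 hold such a tract. Eef2 on the plus strand at chr10:81176621-81176650, Eif3m on the minus strand at chr2:105017008-105017037, Eif3g on the minus strand at chr9:20898571-20898600, Eif4a1 on the minus strand at chr11:69672404-69672433 and Eif4ebp2 on the minus strand at chr10:61452650-61452679 do not.
Eef1a1: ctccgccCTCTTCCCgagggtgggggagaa
Eif3f: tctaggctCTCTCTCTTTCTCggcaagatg
Eif2s3x: gagcattttCCTTTTCTCTCCgagcaagat
Eif4g1: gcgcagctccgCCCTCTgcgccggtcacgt
Eef2: aaggccgggcgttgacgtcagcggtctctt
Eif3m: cggtcggcgtgtttctggatcggagcgtct
Eif3g: acccgggctgggagctgcgtggagttaaga
Eif4a1: gtaacgtcacgtcgagttgcagagcgccgg
Eif4ebp2: cgcagcgggacgaccgggcgagagcaggcg

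The tract stood at the start of 10 of the 52 members with a promoter entry (19.2%), against 3651 of all 27025 genes with an entry (13.5%). Both member counts include Eif2c5, which matched by name only. The other members with it were Eif1ad, Eif2ak4, Eif2b5, Eif2c5, Eif3b and Eif3l. A window without the tract says only that these letters are not next to the annotated start. Eef1g, Eif3e, Eif3h and Eef1d had no promoter entry.

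RNA-seq depth ranged from 18504094 to 22592406 counts per library and Ribo-seq depth from 10973699 to 35853227, the lowest being F-cKO replicate 2. Every M-cKO Ribo-seq library (13764136 to 21725348) was also shallower than every Ctrl one (30081796 to 35853227). The part of this depth difference in the M-cKO footprint results was not tested. In simulated counts with a log2 change of 1 the same fit called 77 and 73 of 100 changed genes in the RNA-seq of F-cKO and M-cKO but 3 and 44 of 100 in their Ribo-seq. Fto RNA was 142, 147 and 111 CPM (counts scaled to a common library size) in Ctrl and 42.8, 99.2 and 32.2 in F-cKO (-1.21 ± 0.33, adjusted P = 0.030). Fto footprints were 276, 234 and 188 CPM in Ctrl and 40.4, 25.6 and 43.1 in F-cKO, which did not overlap (-2.67 ± 0.25, adjusted P = 0.35). Mettl3 footprints were 38.1, 38.3 and 41.5 CPM in Ctrl and 28.3, 26.6 and 26.8 in M-cKO (-0.55 ± 0.095, adjusted P = 0.016), while Mettl3 RNA rose in M-cKO (44.0, 40.1 and 42.5 against 29.7, 32.9 and 26.1 CPM, adjusted P = 0.0022). Gene counts include exons that the alleles keep, so RNA levels do not check the deletion. All 10 cortical markers were detected in both assays, with a summed RNA level of 932 to 1001 FPKM in Ctrl libraries, 1084 to 1125 in those of F-cKO and 1202 to 1227 in those of M-cKO. All 6 ganglionic eminence markers were called higher in M-cKO RNA and 4 of the 6 in M-cKO footprints, with sums of 113 to 152 FPKM against 79.8 to 81.5 in Ctrl RNA and 53.1 to 112 RPKM against 32.6 to 47.7 in Ctrl footprints. In F-cKO RNA 3 of 6 meningeal markers were called lower (2.97 to 9.78 against 11.8 to 22.2 FPKM), and the endothelial sum was 37.7 to 43.3 against 49.4 to 54.3 FPKM, with 1 of 6 endothelial markers called lower. The footprints of F-cKO replicate 2 stood apart, with an endothelial sum of 87.5 RPKM against 4.48 to 8.91 in the other 8 libraries and a cortical sum of 695 against 922 to 1131. The part of these shifts in the results below was not tested, and in whole cortex fewer cells of a type and less RNA per cell cannot be told apart.

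In Ctrl cortex 4 elongation factor genes led the group in RNA, and the others ranked from 9 (Eef1b2) to 59 (Eif5a2). Per length, Eef1a1 RNA was 2576 ± 26.0 FPKM (SD, n = 3), Eef2 1041 ± 30.4, Eef1g 258 ± 12.9 and Eif5a 203 ± 6.56, and these 4 did not overlap between neighbours. Next came the helicase Eif4a1 at 181 ± 4.96 FPKM and the eIF3 subunit Eif3h at 179 ± 6.32, which did not differ beyond their spread. In footprints Eef2 (604 ± 45.6 RPKM) and Eef1a1 (583 ± 20.3 RPKM) also did not differ beyond their spread. By mean Eif3c (252 ± 18.6 RPKM) and Eif1b (229 ± 23.0 RPKM) followed, while Eef1g ranked 39 (26.0 ± 3.88 RPKM). At the low end were the double-stranded RNA-activated kinase gene Eif2ak2 (0.727 ± 0.123 FPKM) among tested genes in RNA and the 4E-BP gene Eif4ebp1 (1.08 ± 0.0414 RPKM) in footprints, and the oocyte-type Eif4e1b was listed at 0 in all Ctrl RNA libraries. The 68 genes together took 2.19 ± 0.026% of RNA counts (Ctrl), 2.22 ± 0.067% (F-cKO) and 2.46 ± 0.092% (M-cKO). Of footprint counts they took 1.46 ± 0.057%, 1.39 ± 0.21% and 1.35 ± 0.092%, with 1.15% in F-cKO replicate 2.

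Changes were tested with edgeR's quasi-likelihood test, adjusted by Benjamini-Hochberg over all genes, and a gene is called where its adjusted P was below 0.05. Both knockouts were compared with the same Ctrl libraries, so their values are set side by side and are not independent of each other. Of the 64 factor genes tested in RNA-seq, 8 rose and 2 fell in F-cKO, where 11.5% of all 16944 tested genes rose and 9.57% fell. In M-cKO 10 rose and 9 fell, where 15.5% of 16968 genes rose and 14.1% fell. The counts of rises, and of falls in M-cKO, are near the background. The median log2 change of the members was 0.03 in each knockout. In F-cKO Ribo-seq edgeR called none of the 63 members and DESeq2 none of the 61 to which it gave an adjusted P, and 1 was higher at an unadjusted P below 0.05 (Eif2s2) and 0 lower, against 1.58% and 0.635% of all genes. Over all 14335 genes none was called by edgeR in that comparison (0% higher and 0% lower).

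In M-cKO footprints 10 of the 63 members fell and none rose, where 7.13% of all 14314 genes rose and 7.50% fell. At an unadjusted P below 0.05, 3 members were higher and 20 lower, against 16.6% and 17.5% of all genes, and DESeq2 called 2 higher and 13 lower, with 1602 higher and 1505 lower of all 14314 genes. All 3 M-cKO libraries lay below all 3 Ctrl libraries for 19 members and above them for 6, where 19.0% and 19.9% of all genes did so. The median log2 change of the members was -0.12 and 43 of 63 were negative, with a median over all genes of -0.00028 and 50.0% of them negative. The 10 genes were the eIF3 subunits Eif3e, Eif3g, Eif3k and Eif3m, the helicase Eif4a1, its cofactor Eif4h, the eIF4G homologue Eif4g2, the eIF2B subunits Eif2b3 and Eif2b4, and Eif5a. These calls depend on single libraries and on the fit. Without Ctrl replicates 1, 2 and 3 in turn 3, 0 and 4 members fell, and without M-cKO replicates 1, 2 and 3 the numbers were 4, 4 and 9. With all genotypes in 1 fit 0 fell, although 8 fell when that fit left out F-cKO replicate 2. With 1 library left out in turn, Eif3e and Eif3m kept their call in 5 of 6 fits, Eif4a1 in 4, Eif3g in 3, Eif2b3, Eif2b4, Eif3k, Eif4g2 and Eif5a in 1 and Eif4h in 0.

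**Figure D1:**
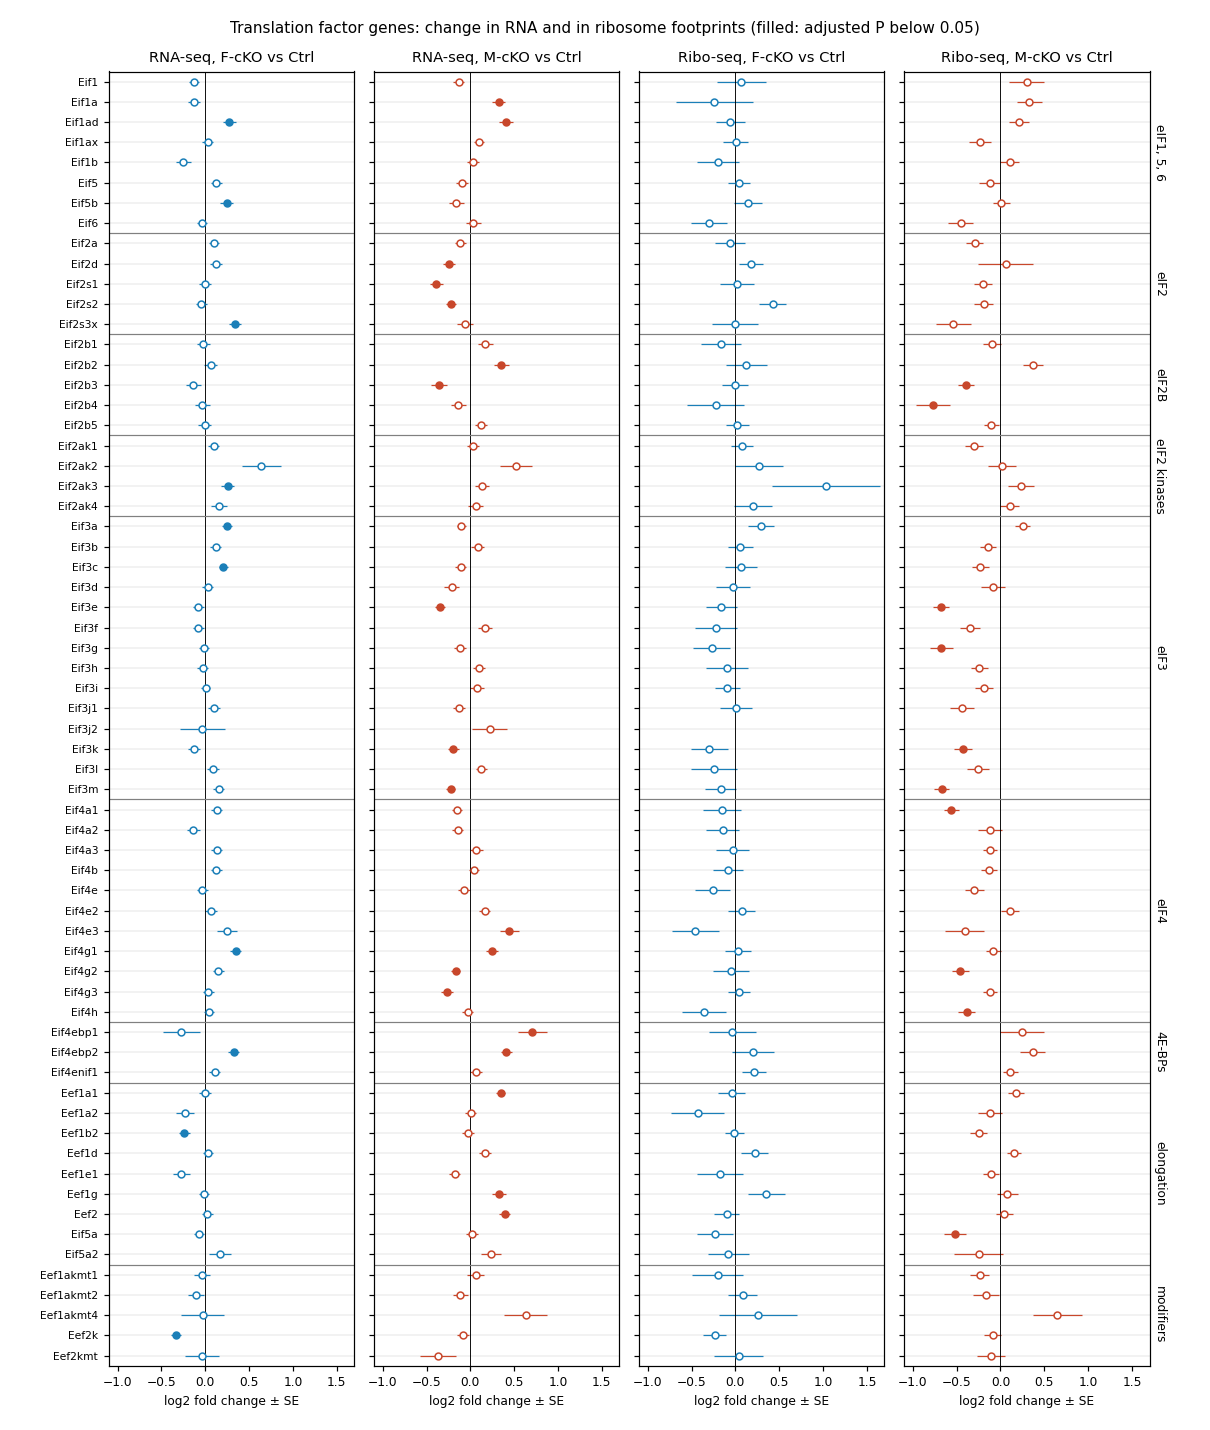
Log2 fold change against Ctrl of each factor gene in RNA-seq and Ribo-seq, by role, for F-cKO and M-cKO, with lines of 1 SE. Filled points are called at an adjusted P below 0.05. In M-cKO footprints the 10 called members all lie below 0, 4 of them in the eIF3 group.

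Of the 9 elongation factor genes 3 rose in M-cKO RNA and none fell, where 15.5% of all genes rose and 14.1% fell, with a median log2 change of 0.17. Eef1a1, which delivers aminoacyl-tRNA to the ribosome, had RNA values of 6433, 6548 and 6448 CPM for Ctrl, 6559.8, 5934 and 7009.7 for F-cKO and 8162, 7935 and 8692 for M-cKO. All 3 M-cKO libraries lay above the others, with a log2 change of 0.34 ± 0.053 (SE, adjusted P = 0.00081), and Ctrl and F-cKO overlapped (-0.01 ± 0.070, adjusted P = 0.96). Eef2, the translocase, had 3446, 3602 and 3417 CPM (Ctrl), 3800.3, 3562 and 3374 (F-cKO) and 4623, 4182 and 4972 (M-cKO), and rose in M-cKO by 0.39 ± 0.067 (adjusted P = 0.0015). Eef1g, a subunit of the exchange complex eEF1B, also rose in M-cKO (0.33 ± 0.079, adjusted P = 0.0099). As a share of all RNA counts the 9 genes took 1.19 ± 0.0288% in Ctrl libraries, 1.17 ± 0.0480% in those of F-cKO and 1.49 ± 0.0808% in those of M-cKO.

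Their footprints did not show a called rise. Eef1a1 footprints were 1144, 1222 and 1203 CPM for Ctrl, 1297, 993 and 1175 for F-cKO and 1420.0, 1274 and 1409 for M-cKO, a change of 0.18 ± 0.088 in M-cKO that missed the threshold (adjusted P = 0.20) although all 3 M-cKO libraries lay above Ctrl. Eef2 footprints were 1736, 1688 and 1511 CPM (Ctrl), 1454, 1525 and 1629 (F-cKO) and 1633, 1703 and 1833 (M-cKO), and the groups overlapped (0.04 ± 0.10, adjusted P = 0.79). Eif5a, the hypusinated factor that frees stalled ribosomes, was called in footprints and not in RNA. Its RNA was 497, 493 and 472 CPM in Ctrl libraries, 483, 446 and 472 in those of F-cKO and 463, 481 and 542 in those of M-cKO, with overlapping groups (0.02 ± 0.069, adjusted P = 0.88). Its footprints were 424, 414 and 451 CPM for Ctrl, 414, 264 and 418 for F-cKO and 321, 248 and 347 for M-cKO, a fall in M-cKO to 0.70 of Ctrl (log2 -0.52 ± 0.13, adjusted P = 0.037) with no overlap. Within F-cKO the low value belonged to replicate 2, the library that stands apart.

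The paralogues Eef1a2 and Eif5a2 were not called by edgeR in any comparison with Ctrl as filtered here, although with no filter on low counts Eef1a2 was called in F-cKO RNA (adjusted P = 0.029). Eef1a2, which takes over from Eef1a1 in mature neurons and muscle, had RNA values of 101, 92.4 and 102 CPM (Ctrl), 92.9, 90.4 and 70.3 (F-cKO) and 101, 92.8 and 103 (M-cKO), with adjusted P = 0.13 and 0.99. Its footprints were 239, 176 and 175 CPM in Ctrl libraries, 145, 90.3 and 202 in those of F-cKO and 184, 187 and 181 in those of M-cKO. Eif5a2, the minor eIF5A gene, was lower still, with RNA of 12.7 to 16.0 CPM for Ctrl, 14.5 to 18.4 for F-cKO and 16.0 to 18.2 for M-cKO and footprints of 6.57 to 7.42 CPM (Ctrl), 5.45 to 7.37 (F-cKO) and 3.73 to 8.58 (M-cKO). Both paralogues overlapped between genotypes in footprints, except that Eef1a2 in F-cKO replicate 2 lay below every other library.

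In F-cKO RNA edgeR called 1 of the 9 elongation factor genes lower, where 9.57% of all genes fell. Eef1b2, the nucleotide exchange subunit of eEF1B, had RNA values of 341, 347 and 354 CPM (Ctrl), 301, 274 and 314 (F-cKO) and 331, 322 and 377 (M-cKO), and fell in F-cKO (-0.24 ± 0.063, adjusted P = 0.024), a call that held in 2 of 6 fits with 1 library left out. Eef1e1, a gene of the aminoacyl-tRNA synthetase complex, had -0.27 ± 0.094 in F-cKO RNA (adjusted P = 0.066, 0.049 by DESeq2, 0.043 with all genotypes in 1 fit and 0.0099 with no filter on low counts). Among the 5 tested enzymes that modify elongation factors, Eef2k, the kinase that inactivates eEF2, fell in F-cKO. Its RNA was 81.0, 83.4 and 79.5 CPM in Ctrl libraries, 64.9, 63.4 and 67.4 in those of F-cKO and 77.1, 72.5 and 81.5 in those of M-cKO, with all 3 F-cKO libraries below the other 6 (-0.33 ± 0.057, adjusted P = 0.0058). Eef2k footprints were 63.6, 65.1 and 59.1 CPM for Ctrl, 54.1, 49.1 and 56.0 for F-cKO and 57.0, 56.9 and 65.7 for M-cKO, again with F-cKO below Ctrl in every library but without a call (-0.24 ± 0.13, adjusted P = 0.73). EdgeR called no modifier in M-cKO, where the methyltransferase gene Eef1akmt4 had 0.63 ± 0.25 in RNA (adjusted P = 0.079). It was called with no filter on low counts (adjusted P = 0.023), without Ctrl replicate 3 (0.044) and without M-cKO replicate 2 (0.034).

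**Figure D2:**
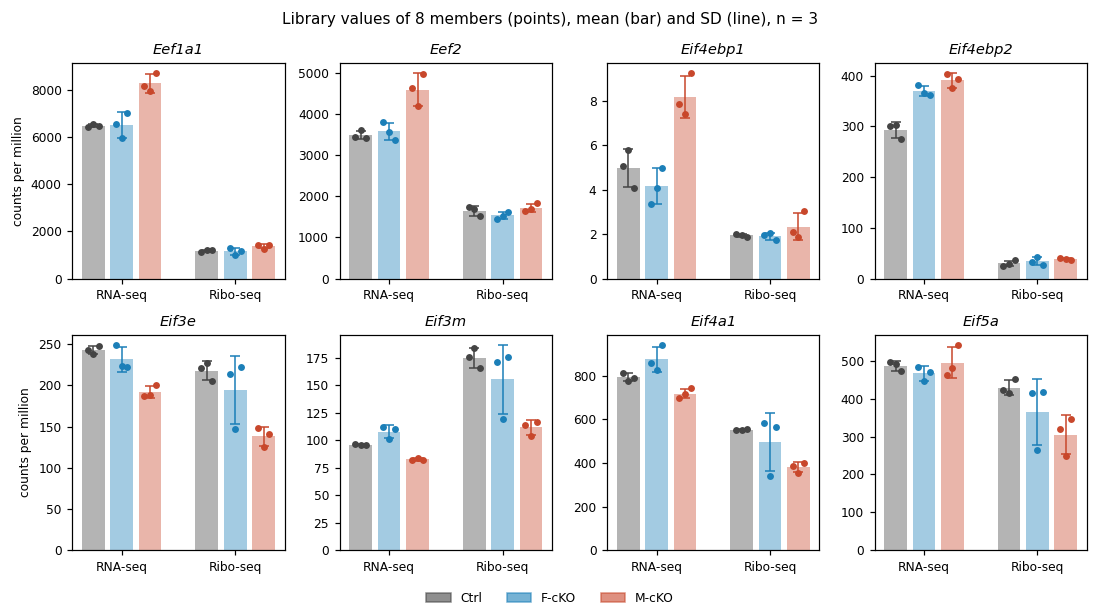
CPM in each library for 8 factor genes in RNA-seq and Ribo-seq, by genotype; points are libraries and bars with lines the group mean with SD. Eef1a1 and Eef2 RNA are higher in all 3 M-cKO libraries than in Ctrl, while Eif3e, Eif3m and Eif4a1 footprints are lower in all 3.

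The eIF3 group, the scaffold that holds the small subunit for initiation, held 4 of the 10 falls in M-cKO footprints among its 13 tested genes, and 12 of the 13 were negative with a median log2 change of -0.26. Of all genes 7.50% fell in that comparison and 50.0% were negative. Eif3m, a subunit of the PCI-domain core, had RNA values of 96.7, 96.0 and 95.8 CPM (Ctrl), 112, 101 and 110.2 (F-cKO) and 81.8, 83.8 and 82.1 (M-cKO), with M-cKO below both other groups (-0.23 ± 0.055, adjusted P = 0.010). Its footprints were 176, 184 and 165 CPM in Ctrl libraries, 171, 119.6 and 176 in those of F-cKO and 114, 104 and 117 in those of M-cKO, a fall in M-cKO to 0.63 of Ctrl (-0.67 ± 0.087, adjusted P = 0.0081). Eif3e, whose protein touches eIF4G, had RNA of 243, 237 and 248 CPM for Ctrl, 249, 224 and 222 for F-cKO and 187, 188 and 199.8 for M-cKO and fell in M-cKO (-0.35 ± 0.057, adjusted P = 0.0011). Eif3e footprints were 221, 227 and 205 CPM (Ctrl), 214, 148 and 222 (F-cKO) and 148, 126 and 141 (M-cKO), and fell to 0.63 of Ctrl in M-cKO (-0.68 ± 0.093, adjusted P = 0.0091). Both genes lost their footprint call without Ctrl replicate 2 (adjusted P = 0.052 and 0.059).

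Other subunits fell in footprints with a smaller or no called change in RNA. Eif3g, an RNA-binding subunit, fell in M-cKO footprints (log2 -0.67 ± 0.13, adjusted P = 0.021), with -0.12 ± 0.068 in RNA (adjusted P = 0.23). Eif3k, a subunit that the core complex can do without, fell in both (footprints -0.43 ± 0.10, adjusted P = 0.031, and RNA -0.19 ± 0.065, adjusted P = 0.043), and each call held in 1 of 6 fits with 1 library left out. The RNA call of Eif3k was also lost with no filter on low counts. Both calls were lost with all genotypes in 1 fit and with a block for replicate number. Eif3f and Eif3j1 had footprint changes of -0.34 and -0.44 that missed the threshold (adjusted P = 0.079 and 0.072), and DESeq2 called Eif3f (adjusted P = 0.046). Eif3h, which with Eif3f carries an MPN domain, had RNA of 278, 299 and 297 CPM in Ctrl libraries, 297, 275 and 292 in those of F-cKO and 301, 296 and 342 in those of M-cKO and footprints of 264, 241 and 228 CPM (Ctrl), 271, 149 and 266 (F-cKO) and 194, 213 and 223 (M-cKO). Its M-cKO footprints lay below Ctrl in every library without a call (-0.24 ± 0.10, adjusted P = 0.13).

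The largest subunit, Eif3a, went the other way. Its footprints were 807, 821 and 860.1 CPM for Ctrl, 1151, 1018 and 876 for F-cKO and 961, 993 and 1057 for M-cKO, higher in all 3 M-cKO libraries than in Ctrl (0.25 ± 0.086, adjusted P = 0.086, and 0.028 by DESeq2). Its RNA was 355, 337 and 349 CPM (Ctrl), 433, 414 and 401 (F-cKO) and 326, 325 and 324 (M-cKO). It rose in F-cKO RNA (0.25 ± 0.058, adjusted P = 0.016), as did Eif3c (0.20 ± 0.054, adjusted P = 0.026), and these were the 2 calls among the 14 eIF3 genes there, where 11.5% of all genes rose. They held in 3 and 1 of 6 fits with 1 library left out. Without F-cKO replicate 2 no member was called in F-cKO footprints either, and their median log2 change went from -0.03 to 0.06. Against the Ctrl mean the eIF3 median of that library lay at -0.55, below the other F-cKO libraries (0.06 and 0.03).

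**Figure D3:**
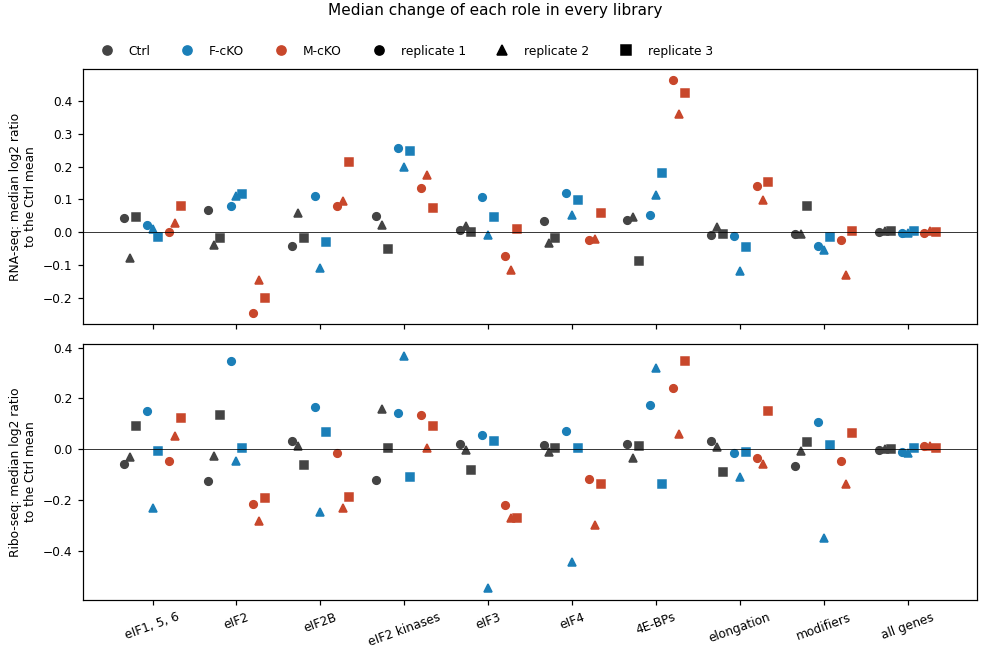
Median log2 ratio to the Ctrl mean over the genes of each role and over all genes, 1 point per library, for RNA-seq (top) and Ribo-seq (bottom), with colours for genotype and shapes for replicate number. The eIF3 medians of the 3 M-cKO Ribo-seq libraries lie between -0.27 and -0.22, and the eIF3 median of F-cKO replicate 2 lies at -0.55.

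Among the cap-binding and eIF4 genes, 3 of 11 fell in M-cKO footprints and none rose, where 7.50% of all genes fell and 7.13% rose. Eif4a1, the main eIF4A helicase, had footprints of 550.3, 552 and 554 CPM in Ctrl libraries, 581, 340.2 and 566 in those of F-cKO and 387, 356 and 399 in those of M-cKO, a fall in M-cKO to 0.68 of Ctrl (-0.56 ± 0.083, adjusted P = 0.011, and 0.069 without Ctrl replicate 2). Its RNA was 811, 775 and 791 CPM for Ctrl, 857, 827 and 939.8 for F-cKO and 696, 715 and 741 for M-cKO, below Ctrl in every M-cKO library but not called by edgeR (-0.15 ± 0.057, adjusted P = 0.066, and 0.036 by DESeq2). The reads of Eif4a1 may be split with its pseudogene, and the authors' treatment of such reads is not given in the sources used here. Eif4a2, the paralogue that is high in brain, had RNA of 661, 633 and 726 CPM (Ctrl), 651, 642 and 561 (F-cKO) and 640.4, 616 and 579 (M-cKO) and footprints of 334, 398 and 439 CPM (Ctrl), 393, 276 and 389.8 (F-cKO) and 363, 315 and 415 (M-cKO), and was not called (-0.12 ± 0.14 in M-cKO footprints, adjusted P = 0.55). Eif4h, which stimulates eIF4A, fell in M-cKO footprints (-0.39 ± 0.10, adjusted P = 0.041) and lost the call whichever single library was left out.

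Of the 3 scaffolds of the eIF4G family, 1 rose and 2 fell in M-cKO RNA, beside 15.5% and 14.1% of all genes. Eif4g1, the main scaffold, had 429, 419 and 407 CPM in Ctrl libraries, 556, 535 and 515 in those of F-cKO and 504, 465 and 527 in those of M-cKO, with both knockouts above Ctrl (0.34 ± 0.059, adjusted P = 0.0054, in F-cKO and 0.25 ± 0.063, adjusted P = 0.013, in M-cKO). Eif4g3, its paralogue, had 260.1, 249 and 279 CPM for Ctrl, 273, 266 and 275 for F-cKO and 230.1, 223 and 205 for M-cKO and fell in M-cKO (-0.27 ± 0.066, adjusted P = 0.011). Eif4g2, which lacks the eIF4E-binding part and serves cap-independent initiation, had 1722, 1640.1 and 1698 CPM (Ctrl), 1961, 1777 and 1913 (F-cKO) and 1527, 1544 and 1455 (M-cKO) and fell in M-cKO (-0.17 ± 0.054, adjusted P = 0.037), a call lost whichever single library was left out. In footprints Eif4g1 had 623, 592 and 572 CPM in Ctrl libraries, 674, 511 and 634 in those of F-cKO and 607, 532 and 579.7 in those of M-cKO, with overlapping groups. Eif4g3 footprints were 249, 245 and 256 CPM for Ctrl, 279, 262 and 230.4 for F-cKO and 233, 239 and 229 for M-cKO and were not called (-0.12 ± 0.078, adjusted P = 0.31). Eif4g2 footprints of 827, 724 and 886 CPM (Ctrl), 851, 584 and 918 (F-cKO) and 621, 570.1 and 614 (M-cKO) fell in M-cKO (-0.46 ± 0.10, adjusted P = 0.029).

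The cap-binding protein gene Eif4e was not called in any comparison with Ctrl. Its RNA was 151, 134 and 150.3 CPM in Ctrl libraries, 144, 139 and 146 in those of F-cKO and 145, 143 and 127 in those of M-cKO, and its footprints were 165, 169.8 and 171 CPM (Ctrl), 163, 100.1 and 159 (F-cKO) and 149, 119 and 150.2 (M-cKO), with M-cKO footprints below Ctrl in every library (-0.30 ± 0.10, adjusted P = 0.090). Of its 3 tested inhibitors and transporters, 1 rose in F-cKO RNA and 2 in M-cKO RNA, beside 11.5% and 15.5% of all genes. Eif4ebp2, the main 4E-BP of brain, had 301, 302 and 275 CPM for Ctrl, 381, 366 and 361 for F-cKO and 404, 376 and 393 for M-cKO, and rose in both (0.32 ± 0.062, adjusted P = 0.0081, in F-cKO and 0.41 ± 0.062, adjusted P = 0.00076, in M-cKO) with no overlap with Ctrl. Its footprints were 25.1, 28.4 and 35.9 CPM (Ctrl), 33.3, 42.8 and 26.6 (F-cKO) and 40.2, 39.3 and 37.6 (M-cKO), higher than Ctrl in every M-cKO library but not called (0.37 ± 0.14, adjusted P = 0.11). Eif4ebp1, another 4E-BP and a gene with few counts, had RNA of 5.05, 5.76 and 4.06 CPM in Ctrl libraries, 3.37, 4.08 and 4.99 in those of F-cKO and 7.85, 7.40 and 9.22 in those of M-cKO and rose in M-cKO to 1.63 times Ctrl (0.71 ± 0.17, adjusted P = 0.0093). Its footprints overlapped at 1.87 to 2.01 CPM for Ctrl, 1.72 to 2.04 for F-cKO and 1.87 to 3.02 for M-cKO. The minor cap-binding paralogue Eif4e3 rose in M-cKO RNA as well (0.44 ± 0.11, adjusted P = 0.0092), with a footprint change of -0.41 ± 0.22 (adjusted P = 0.23).

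All 5 genes for eIF2 and initiator tRNA delivery were negative in M-cKO RNA and 3 of them fell, where 51.2% of all genes were negative and 14.1% fell. Eif2s1, the alpha subunit that the eIF2 kinases phosphorylate, had 92.0, 81.9 and 85.3 CPM (Ctrl), 85.3, 82.8 and 92.7 (F-cKO) and 72.2, 61.5 and 65.4 (M-cKO), with M-cKO below the other 6 libraries (-0.39 ± 0.074, adjusted P = 0.0028). The beta subunit gene Eif2s2 (-0.22 ± 0.061, adjusted P = 0.018) and the tRNA delivery factor gene Eif2d (-0.25 ± 0.073, adjusted P = 0.026) fell too, calls that held in 3 and 2 of 6 fits with 1 library left out. The Eif2d call was also lost with no filter on low counts and with a block for replicate number. Eif2s1 footprints were 73.5, 81.8 and 89.2 CPM in Ctrl libraries, 103, 66.2 and 78.4 in those of F-cKO and 73.0, 66.9 and 76.9 in those of M-cKO, with overlapping groups (-0.20 ± 0.10, adjusted P = 0.21). The main edgeR fit called none of the 5 genes in M-cKO footprints, while DESeq2 called Eif2s3x lower there (log2 -0.52, adjusted P = 0.039). EdgeR also called Eif2s3x lower with a block for replicate number (-0.53, adjusted P = 0.033) and without M-cKO replicate 3 (-0.70, adjusted P = 0.049996).

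Eif2s3x, the X-linked gamma subunit, rose in F-cKO and not in M-cKO. Its RNA was 163, 148 and 146 CPM for Ctrl, 205, 182 and 195 for F-cKO and 131, 138 and 170.5 for M-cKO (0.34 ± 0.068, adjusted P = 0.0099, in F-cKO and -0.06 ± 0.094, adjusted P = 0.67, in M-cKO). In the direct comparison M-cKO lay below F-cKO (-0.41 ± 0.10, adjusted P = 0.011). Over all members 8 were higher and 14 lower in M-cKO than in F-cKO, against 13.1% and 14.3% of all 16802 genes. Eif2s3x footprints were 60.3, 55.5 and 84.9 CPM (Ctrl), 87.0, 63.7 and 49.1 (F-cKO) and 44.5, 38.6 and 57.5 (M-cKO), and the groups overlapped. Xist RNA, which is made from the inactive X of females, also differed between libraries, at 31.3, 29.4 and 50.2 FPKM in Ctrl libraries, 17.0, 19.0 and 56.1 in those of F-cKO and 0.00491, 7.92 and 20.8 in those of M-cKO. The part of the sexes in the Eif2s3x values was not tested.

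Of the 4 kinases that act on eIF2, edgeR called 1 higher in F-cKO RNA, where 11.5% of all genes rose. Eif2ak3 (PERK), the kinase of the endoplasmic reticulum, rose in F-cKO RNA (0.25 ± 0.075, adjusted P = 0.039), a call that held in 1 of 6 fits with 1 library left out and was lost with no filter on low counts. Its F-cKO footprint change of 1.04 ± 0.62 (adjusted P = 0.73) came with 11.4, 48.0 and 10.3 CPM in the 3 libraries against 9.77 to 12.9 in Ctrl, the high value being replicate 2. Eif2ak4 (GCN2), which senses uncharged tRNA, had RNA of 28.0, 30.5 and 32.4 CPM for Ctrl, 31.0, 33.8 and 37.1 for F-cKO and 30.3, 33.4 and 31.5 for M-cKO and footprints of 35.0, 42.3 and 39.1 CPM (Ctrl), 43.5, 56.2 and 34.3 (F-cKO) and 43.7, 38.7 and 44.6 (M-cKO), and was not called in any comparison with Ctrl. Eif2ak2 had the largest RNA changes of the 4 at low counts, 0.64 ± 0.22 in F-cKO and 0.52 ± 0.18 in M-cKO, without a call (adjusted P = 0.066 and 0.053, and 0.020 and 0.048 with no filter on low counts).

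Subunits of the exchange factor eIF2B went in opposite directions in M-cKO. Eif2b3 fell in RNA (-0.36 ± 0.092, adjusted P = 0.013) and in footprints (-0.39 ± 0.091, adjusted P = 0.032), Eif2b4 fell in footprints (-0.77 ± 0.20, adjusted P = 0.042) and Eif2b2 rose in RNA (0.35 ± 0.086, adjusted P = 0.0099). Of all genes 15.5% rose and 14.1% fell in M-cKO RNA, and 7.13% rose and 7.50% fell in M-cKO footprints. The Eif2b4 footprints varied widely within Ctrl, from 92.2 to 152 CPM, against 63.8 to 88.7 in M-cKO. Eif2b5, the catalytic subunit, had RNA of 79.1, 71.4 and 74.7 CPM (Ctrl), 81.1, 71.4 and 73.4 (F-cKO) and 79.4, 80.2 and 87.1 (M-cKO) and footprints of 98.6, 98.6 and 92.3 CPM (Ctrl), 108, 84.4 and 101 (F-cKO) and 95.6, 93.4 and 84.6 (M-cKO), and was not called (0.12 ± 0.067 in M-cKO RNA, adjusted P = 0.19).

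Among the 8 genes for start site selection and subunit joining, 2 rose in each knockout in RNA (beside 11.5% of all genes for F-cKO and 15.5% for M-cKO). EdgeR called none of them lower in RNA. Eif1b, a paralogue of Eif1, had -0.25 ± 0.082 in F-cKO RNA (adjusted P = 0.056) and was called lower there by DESeq2 (0.030), with all genotypes in 1 fit (0.049), with no filter on low counts (0.0087) and without F-cKO replicate 1 (0.018). The main edgeR fit called none of the 8 in M-cKO footprints, while DESeq2 called Eif6 lower (log2 -0.44, adjusted P = 0.024). EdgeR also called Eif6 lower with a block for replicate number (-0.46, adjusted P = 0.048) and without M-cKO replicate 1 (-0.59, adjusted P = 0.047). Eif1ad, a small gene related to eIF1A, rose in both (0.27 ± 0.075, adjusted P = 0.029, in F-cKO and 0.41 ± 0.080, adjusted P = 0.0033, in M-cKO), with the F-cKO call held in 1 of 6 fits with 1 library left out and the M-cKO call in all 6. Eif5b, the GTPase that joins the subunits, rose in F-cKO (0.25 ± 0.074, adjusted P = 0.043, held in 1 of 6 fits with 1 library left out) and Eif1a rose in M-cKO (0.32 ± 0.074, adjusted P = 0.0075). Eif1a and its X-linked copy Eif1ax are near identical, so the division of reads between them is uncertain. Eif6, which keeps the large subunit from joining early, had a footprint change of -0.45 ± 0.14 in M-cKO (adjusted P = 0.068).

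RNA and footprints of the same gene were then set against each other. In M-cKO 25 of 63 members were negative in both assays, 16 positive in both, 18 positive in RNA and negative in footprints, and 4 the reverse, and 45 had a footprint change below their RNA change (71.4%, against 56.0% of all 13208 genes). In F-cKO the corresponding numbers were 21, 19, 15, 8 and 40 (63.5%, against 47.5% of all 13225 genes). The sign classes there held 26.9%, 31.8%, 18.6% and 22.7% of all genes. Without F-cKO footprint replicate 2 the numbers of members were 10, 25, 9, 19 and 26, so the F-cKO numbers rest on that library. Of the members called in M-cKO, 14 were called in RNA alone, 5 in footprints alone and 5 in both (Eif2b3, Eif3e, Eif3k, Eif3m and Eif4g2), all 5 downward.

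**Figure D4:**
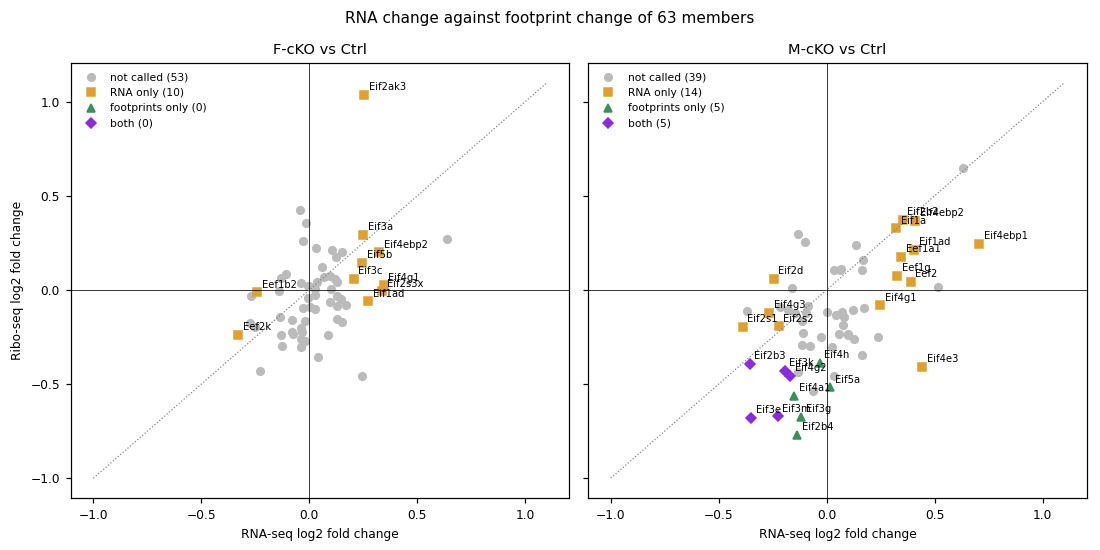
Log2 fold change against Ctrl in Ribo-seq (vertical) plotted on that in RNA-seq (horizontal) for the 63 genes tested in both assays, by knockout, with colours for the assay in which a gene was called. In M-cKO 14 genes are called in RNA alone, 5 in footprints alone and 5 in both, and in F-cKO 10 in RNA alone. Of all genes 15.5% rose and 14.1% fell in M-cKO RNA, and 7.13% and 7.50% in M-cKO footprints. In F-cKO RNA 11.5% rose and 9.57% fell.

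Translational efficiency (TE) is the footprint level per length divided by the RNA level per length. Within Ctrl it ranged widely between members. Eef1g had 0.101, Eif4ebp2 0.125 and Eef1a1 0.226, whereas Eif3c had 3.95, Eif5b 3.77 and Eif3g 3.54. By role the Ctrl median ran from 0.48 in the 4E inhibitors and 0.81 in the elongation factors to 2.24 in eIF3 and 2.29 in eIF2B. The eIF3 median was 1.77 (M-cKO) and 1.75 (F-cKO), and the F-cKO value was 2.02 without its footprint replicate 2. The 2 assays were counted by different pipelines, so a TE is no absolute rate. The part of the counting in the differences between genes was not tested.

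TE changes were tested as the assay by genotype interaction. In M-cKO 1 of 63 members rose and none fell, where 1.89% of all 13208 genes rose and 1.18% fell, and DESeq2 called 1 higher and 6 lower, with 513 higher and 488 lower of all 13208 genes. At an unadjusted P below 0.05, 2 were higher and 14 lower, against 12.3% and 9.21% of all genes, with a member median of -0.12. The call was Eif3a, with a TE of 2.87, 2.92 and 3.04 in Ctrl libraries, 3.52, 2.65 and 2.60 in those of F-cKO and 3.63, 3.53 and 3.96 in those of M-cKO, a rise of 0.42 ± 0.10 on the log2 scale (adjusted P = 0.033). All M-cKO values lay above Ctrl, and the call held in 4 of 12 fits with 1 library left out. It was lost with all genotypes in 1 fit (adjusted P = 0.28) and with that fit without F-cKO replicate 2 (adjusted P = 0.083). Just outside the threshold were Eif3m (-0.37 ± 0.10, adjusted P = 0.053), Eif4a1 (-0.34 ± 0.095, adjusted P = 0.064) and Eif4e3 (-0.78 ± 0.22, adjusted P = 0.067). Of the 13 eIF3 genes 11 were negative in M-cKO TE, with a median of -0.24, where 47.7% of all genes were negative. In F-cKO none was called (0% of all genes in either direction), with 1 higher and 3 lower at an unadjusted P below 0.05, against 3.11% and 6.18% of all genes. The median was -0.12, and without replicate 2 the median was 0.04.

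**Figure D5:**
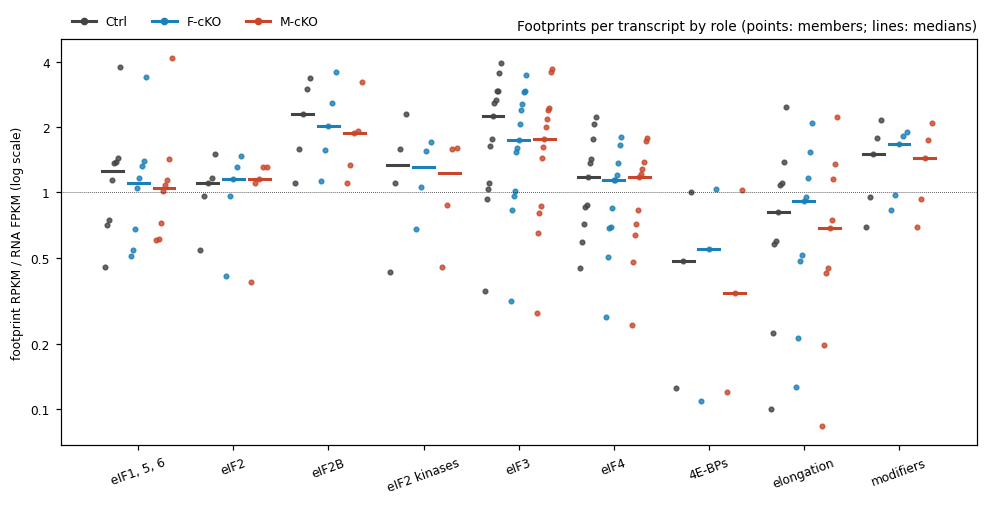
Translational efficiency of each factor gene in Ctrl, F-cKO and M-cKO on a log scale, by role, with bars at the median of each role and a dotted line at 1. The elongation factors and 4E inhibitors lie lowest in Ctrl (medians 0.81 and 0.48) and eIF3 and eIF2B highest (2.24 and 2.29).

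By start-site tract, the 9 tested members with a tract included 3 that rose and none that fell in each knockout's RNA and none called by edgeR in M-cKO footprints, where 11.5% of all genes rose in F-cKO RNA and 15.5% in M-cKO RNA. The 42 tested members with a promoter entry but no tract included 5 that rose and 2 that fell in F-cKO RNA, 3 that rose and 6 that fell in M-cKO RNA and 7 that fell in M-cKO footprints, where 9.57% of all genes fell in F-cKO RNA, 14.1% in M-cKO RNA and 7.50% in those footprints. The median footprint change was -0.10 with the tract and -0.12 without it. Of the 9 members listed as 5′TOP mRNAs from textbook knowledge, 3 rose (Eef1a1, Eef1g and Eef2) and 1 fell (Eif3e) in M-cKO RNA, and 1 fell in M-cKO footprints (Eif3e). In F-cKO RNA 1 of these 9 fell (Eef1b2). Of 7 further 5′TOP mRNAs, 2 fell in M-cKO footprints, the splicing factor gene Hnrnpa1 (-0.60 ± 0.15, adjusted P = 0.035) and the ribosomal scaffold gene Rack1 (-0.50 ± 0.12, adjusted P = 0.035), and all 7 were negative. In RNA 3 of the 7 rose in F-cKO and none was called in M-cKO.

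The genes that act on these factors were taken from 3 further lists. Of 15 genes of mTOR and eIF4E signalling, 7 rose and none fell in F-cKO RNA, and 4 rose and 1 fell in M-cKO RNA, beside the 11.5% of all genes that rose in F-cKO RNA and the 15.5% that rose and 14.1% that fell in M-cKO RNA. Mtor itself rose in both (0.23 ± 0.053, adjusted P = 0.016, and 0.22 ± 0.054, adjusted P = 0.011), as did Rptor, its partner in mTORC1 (0.22 and 0.24). Rheb, the GTPase that activates mTORC1, fell in M-cKO RNA (-0.23 ± 0.068, adjusted P = 0.028) and further in footprints, which were 211, 204 and 161 CPM for Ctrl, 81.0, 181 and 177 for F-cKO and 103, 88.5 and 87.8 for M-cKO. The M-cKO footprints lay at 0.48 of Ctrl (-1.07 ± 0.13, adjusted P = 0.0066) and the TE of Rheb fell (-0.77 ± 0.15, adjusted P = 0.018). Larp1, which binds 5′TOP mRNAs, was the 1 gene of the list that rose in M-cKO footprints (0.37 ± 0.086, adjusted P = 0.032). Of all genes 7.13% rose and 7.50% fell in those footprints, and 1.18% fell in M-cKO TE.

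Of the 17 factors of termination, recycling, scanning and poly(A) binding, 5 rose in F-cKO RNA, and 4 rose and 3 fell in M-cKO RNA, beside the same background. In M-cKO footprints, where 7.50% of all genes fell, 4 fell, the recycling factor genes Abce1 (-0.63 ± 0.11, adjusted P = 0.017) and Denr (-0.57 ± 0.10, adjusted P = 0.018), the release factor gene Etf1 (-0.36 ± 0.10, adjusted P = 0.047) and the ribosome rescue gene Hbs1l (-0.47 ± 0.11, adjusted P = 0.032). Pelo, the partner of Hbs1l in ribosome rescue, rose in M-cKO RNA (1.32 ± 0.13, adjusted P = 7.5e-05) and footprints (1.14 ± 0.21, adjusted P = 0.018). Of the 8 enzymes that make hypusine on eIF5A or diphthamide on eEF2, Dohh, which completes hypusine, fell in F-cKO RNA (-0.32 ± 0.10, adjusted P = 0.044). Of all genes 9.57% fell there. In M-cKO the diphthamide genes Dph2 and Dph3 rose in RNA, where 15.5% of all genes rose. In footprints Dph2 rose (0.42 ± 0.11, adjusted P = 0.043) and Dph6 fell (-0.47 ± 0.13, adjusted P = 0.047), while Dph3 fell both in footprints (-0.72 ± 0.17, adjusted P = 0.035) and in TE (-0.96 ± 0.16, adjusted P = 0.012). Of all genes 7.13% rose and 7.50% fell in M-cKO footprints, and 1.18% fell in M-cKO TE.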

How the data were processed

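RNA-seq and Ribo-seq of cortex at embryonic day 15.5 were analysed from the tables that the authors deposited. For each assay these held read counts per gene and a level per gene length, FPKM for RNA-seq and RPKM for Ribo-seq, computed by the authors. The submitters' processing notes name HISAT2 2.0.5, TopHat2, HTSeq, DESeq2 1.14.1 and the mm10 build, and the methods place HISAT2 with RNA-seq and TopHat2 with HTSeq with Ribo-seq. The counting tool and strand setting of RNA-seq and the annotation are not given in the sources used here. Ribo-seq counts were blank in 8 libraries for 40490 of 54838 genes, which were left out. All columns were tied to a sample by name (0 unmapped).

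Counts were tested with edgeR 4.0.16 in R 4.3.3 (filterByExpr with a minimum count of 10 and total of 15, TMM scaling, glmQLFit and glmQLFTest) on the 6 libraries of each comparison, and TE as the assay by genotype interaction over 12 libraries for genes that passed the filter in each assay. P values were adjusted by Benjamini-Hochberg over all genes tested, with a threshold of 0.05. CPM values use TMM-scaled library sizes, log2 changes are fitted values with SE, and TE levels are RPKM of each Ribo-seq library over the mean FPKM of the group, with no test. The script was tested on simulated data, with 0 calls in the wrong direction. Alternatives were DESeq2 1.42.0, RLE scaling, no filter, all genotypes in 1 fit, a replicate block, protein-coding genes only, and each library left out. In no comparison did all 3 same-numbered pairs correlate above 0.1, so the main comparison has no block.

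The members, gene lists and tests were chosen with earlier results of these data known. By rule any member could be named with its change. Values per library were given for the 3 called members with the smallest adjusted P per direction in each comparison with Ctrl and for 19 members that span the roles. Those of Eif2ak3, Eif2b4, Fto, Mettl3, Rheb and Xist were added after their values were seen. Promoter windows came from RefSeq (GRCm38.p6), for 52 members.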

Additional observations from a re-analysis of the deposited data

Results flagged for a closer look

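RNA levels of 22 members differed between M-cKO and F-cKO when these groups were compared directly by edgeR's quasi-likelihood test. Of the 64 members 8 were higher and 14 lower in M-cKO, where 13.1% of all 16802 tested genes were higher and 14.3% lower. The higher genes were Eef2k (log2 0.23), Eif1b (0.27), Eif2b2 (0.28), Eef1g (0.33), Eef1a1 (0.34), Eef2 (0.35), Eif1a (0.44) and Eif4ebp1 (0.97). The lower genes were Eif5b (-0.42), Eif2s3x (-0.41), Eif2s1 (-0.40), Eif3m (-0.39), Eif2d (-0.38), Eif3a (-0.36), Eif4g2 (-0.33), Eif3c (-0.32), Eif4g3 (-0.31), Eif4a1 (-0.29), Eif3e (-0.28), Eif3j1 (-0.24), Eif5 (-0.23) and Eif2a (-0.22). The lower genes included 5 eIF3 genes, 4 genes for eIF2 and initiator tRNA delivery and 3 eIF4 genes, and the higher genes included 3 elongation factors. The call of Eif5 held in 0 of 6 fits with 1 library left out, those of Eif3j1, Eif2a and Eif1b in 2, those of Eif2b2 and Eef2k in 3, and the other 16 in 4 to 6. In the direct footprint comparison none of the 63 members was called by edgeR or DESeq2, with 0% of all genes called by edgeR, and without F-cKO replicate 2 edgeR again called 0 members.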

How the results depend on the processing

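No result changed direction past its threshold. In F-cKO RNA the 8 rises became 4 with the replicate block, and the 2 falls became 4 with DESeq2, 4 with all genotypes in 1 fit, 5 with no filter and 1 with the replicate block. In M-cKO footprints the 0 rises became 2 with DESeq2 and 2 with protein-coding genes only (Eif2b2 and Eif3a in each), and the 10 falls became 0 with all genotypes in 1 fit. In M-cKO TE the 1 rise became 0 with all genotypes in 1 fit and 0 with the replicate block (Eif3a, adjusted P = 0.080), and the 0 falls became 6 with DESeq2 (Eif3f, Eif3g, Eif3m, Eif4a1, Eif4e3 and Eif5a). An alternative chosen after seeing the data, all genotypes in 1 fit without Ribo-seq F-cKO replicate 2, gave 8 falls in M-cKO footprints and 0 rises in TE. Same-numbered libraries share a number only, and the replicate block moved no other count by more than 1.5 times.

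With 1 library left out, F-cKO RNA had 3 to 6 rises and 1 to 3 falls, M-cKO RNA 10 to 11 rises and 3 to 10 falls, and M-cKO against F-cKO RNA 5 to 9 rises and 9 to 13 falls. M-cKO footprints had 0 rises and 0 to 9 falls, with 3, 0 and 4 falls without Ctrl replicates 1, 2 and 3 and 4, 4 and 9 without M-cKO replicates 1, 2 and 3. M-cKO TE had 0 to 1 rises and 0 to 6 falls, with 4 falls without Ribo-seq Ctrl replicate 3 and 6 without Ribo-seq M-cKO replicate 3. The cause of these losses was not tested. F-cKO RNA falls were 1 without any single Ctrl library or F-cKO replicate 2, and its rises were 3 without Ctrl replicate 2 or F-cKO replicate 2. M-cKO RNA falls were 3 without M-cKO replicate 1 and 5 without Ctrl replicate 1 or 3. The median TE of the members ranged from 1.14 to 1.18 (Ctrl), 1.03 to 1.36 (F-cKO) and 1.12 to 1.19 (M-cKO).

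Calls that held under every alternative and every omission were Eif4g1, Eif4ebp2, Eif2s3x and Eef2k in F-cKO RNA, 12 in M-cKO RNA and 13 in M-cKO against F-cKO RNA, those of M-cKO RNA including Eef1a1, Eef2, Eef1g, Eif4ebp1, Eif4ebp2, Eif2s1 and Eif3e. The spread limits the footprints, with a biological coefficient of variation of 0.38 in F-cKO and 0.23 in M-cKO against 0.10 and 0.094 in RNA.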

Other observations

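In 7 pairs of paralogues placed in the same group above, which need not act alike, the share of 1 gene in the pair was taken per length. Eif4g3 made up 28.6, 28.2 and 31.1% of Eif4g1 and Eif4g3 RNA together in the Ctrl libraries, 24.5, 24.7 and 26.0% in F-cKO and 23.1, 24.0 and 20.4% in M-cKO. Both knockouts lay below Ctrl in RNA, while in footprints the mean share was 21.7% (Ctrl), 22.0% (F-cKO) and 21.2% (M-cKO). For the eIF4A helicases Eif4a2 made up 33.0, 36.9 and 39.2% of the pair's footprints for Ctrl, 35.5, 39.7 and 35.8% for F-cKO and 43.2, 41.8 and 45.8% for M-cKO, with every M-cKO library above Ctrl and F-cKO overlapping it. In RNA its share was 39.8, 39.9 and 42.7% (Ctrl), 38.1, 38.7 and 32.6% (F-cKO) and 42.7, 41.2 and 38.8% (M-cKO), with F-cKO below Ctrl and M-cKO overlapping it. Eif1ax made up 66.9, 66.7 and 65.9% (Ctrl), 68.6, 68.8 and 69.2% (F-cKO) and 64.6, 60.9 and 63.4% (M-cKO) of the RNA of Eif1ax and Eif1a, with M-cKO below Ctrl and F-cKO above it, and 68.9 to 72.8% (Ctrl), 70.0 to 86.2% (F-cKO) and 59.1 to 63.6% (M-cKO) of their footprints, with M-cKO again below Ctrl. The division of reads between these near-identical genes is uncertain. Eif4e2 against Eif4e lay above Ctrl in every knockout footprint library (21.5 to 24.9% in Ctrl, 25.4 to 31.7% for F-cKO, 25.9 to 33.2% for M-cKO) and overlapped Ctrl in RNA. Eif1b against Eif1 lay above Ctrl in M-cKO RNA (58.5 to 60.2% against 55.9 to 57.1%) and overlapped it in F-cKO RNA and in footprints. Eif5a2 against Eif5a overlapped between the genotypes in both assays. These shares were described after the values were seen and were not tested.

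Eef1a2 made up a larger part of the eEF1A footprints than of the eEF1A RNA. Its share of the pair was 1.66 to 1.85% in Ctrl RNA and 14.7 to 20.0% in Ctrl footprints. Reads of Eef1a1 pseudogenes and the different counting of the assays bear on both values, and their part was not tested.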
